A study of Arabidopsis thaliana with 25 samples.

Results

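Seedlings of Arabidopsis thaliana with raised MPK6 (MPK6ox) were set directly against seedlings without it (mpk6), with roots and shoots and both oxygen treatments in 1 model. The comparison took the 9 MPK6ox and the 8 mpk6 arrays, 17 of the 25 Affymetrix ATH1 arrays of the study, and they were chosen by genotype label alone. MPK6ox carries a T-DNA with MPK6 behind 35S, a viral promoter that drives transcription in most plant cells, and mpk6 is a T-DNA insertion knockout. The 8 wild-type (WT) Col-0 arrays entered none of the main tests. They entered only the alternative fit over all 25 arrays, and are otherwise quoted as a level beside some results. All seedlings grew for 10 days on vertical plates of 0.5x MS medium with sucrose, and each was dissected into root and shoot. Hypoxia was an airtight chamber flooded with 99.998% argon, and normoxia was an open box. Both treatments lasted 2 h by the protocol, whereas the hypoxia source names say 9 h, and which is right could not be settled. Each group of line, organ and treatment held 2 arrays, except MPK6ox root hypoxia with 3. The labels do not say whether MPK6ox or mpk6 stands for several independent lines, or how many seedlings were pooled, so p-values measure only the spread between these arrays.

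MPK6 is a mitogen-activated protein kinase, the last kinase of a phosphorylation cascade that runs from the cell surface to transcription factors and enzymes. In Arabidopsis it is known for its part in immunity, in responses to osmotic and oxidative stress, in the supply of the hormone ethylene, in camalexin synthesis, and in stomatal and embryo patterning. The study asked what MPK6 does when roots and shoots run out of oxygen, and the direct comparison of the overexpressor with the knockout sets the 2 ends of MPK6 dosage, as labelled, against each other.

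Values are log2 expression values, so that a difference of 1 is a 2-fold difference, and all differences are MPK6ox minus mpk6. Correlation between arrays of a group was at least 0.982, and array medians lay between 6.87 and 7.05. The MPK6 transcript is not analysed here, and the genotypes therefore rest on the labels. The organ labels were checked against marker genes. The mean of the 7 measured photosynthesis genes of 34 listed ran from 13.25 to 13.46 in MPK6ox shoots and from 13.26 to 13.48 in mpk6 shoots, above every root array. It ran from 6.72 to 10.46 in MPK6ox roots and from 7.56 to 9.29 in mpk6 roots. The mean of the 3 measured root markers of 21 listed (PYK10, EXPA7 and EXPA18) ran from 9.59 to 11.40 in MPK6ox roots and from 9.57 to 11.72 in mpk6 roots, above every shoot array. The array labelled mpk6 root hypoxia replicate 1 stood apart from the other 16. Its signal at the 3′ end minus that at the 5′ end of the control transcripts, a measure of RNA integrity, was 3.68 for actin, 1.09 for GAPDH and 2.15 for ubiquitin. The other arrays reached at most 3.25 for actin, 0.705 for GAPDH and 1.68 for ubiquitin.

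MPK6ox differed from mpk6 in a compact set of transcripts. Of probe sets with 1 gene, 1.1% were higher in MPK6ox. Among these were 7 of 22 measured berberine-bridge oxidases, an osmotin, 2 chitinases, a glucanase and a lectin. Also higher were 3 of 19 measured cytochromes P450 of the CYP71B family, 5 of 47 UDP-glycosyltransferases and a monolignol-type methyltransferase. The oxidase, chitinase and glucanase, CYP71B and glycosyltransferase groups were chosen after the data were seen. Some of their calls were lost in alternatives given below. Of 20 measured seed maturation genes 15 were lower in MPK6ox, by 16.4-fold for M17. The members of that list were chosen with earlier results of these data known. None of the 21 measured genes of the low-oxygen response list passed the test. Nor did any of the 6 measured of 20 listed MPK6 substrates and outputs.

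Of 22746 probe sets, limma called 437 (1.92%) at an adjusted p under 0.05, 316 (1.39%) higher and 121 (0.532%) lower in MPK6ox. The median over all tested probe sets was −0.01, and the central 95% lay between −0.28 and 0.43. Of the calls, 94 were at least 2-fold higher and 50 at least 2-fold lower. The difference had the same sign in all 4 combinations of organ and treatment for 316 of the 316 higher and 120 of the 121 lower calls. Such a sign, which 20.7% of all tested probe sets had, is largely fixed by choosing calls on the average over these combinations, so nothing is read from it. The 9 MPK6ox arrays lay wholly above the 8 mpk6 arrays for 20 of the higher calls (0.0879% of all probe sets), and wholly below them for 21 of the lower calls (0.0923%). In roots and in shoots taken apart, the lines did not overlap for 107 of the higher calls (0.479% of all probe sets met this, called or not) and 45 of the lower calls (0.207%). Within each of the 4 combinations they did not overlap for 211 of the higher (1.09%) and 64 of the lower calls (0.396%). Without mpk6 root hypoxia replicate 1 the count was 388. It was 350 with root and shoot of the same number as a random block. With a mean for each of the 8 groups in place of the additive model it was 588, and with group means over all 25 arrays 684.

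Of the called probe sets, 149 of the higher and 69 of the lower carried exactly 1 gene, which is 1.1% and 0.511% of the 13513 such probe sets, and names below come from these. The unnamed probe sets include the ends of the range, 3.31 and −5.93. Since whole organs were sampled, fewer cells of a type and less RNA per cell cannot be told apart.

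The berberine-bridge oxidases, secreted flavoenzymes that oxidize alcohols, sugars and other metabolites, gave the largest fold among the named higher genes. AT1G26380 read 9.95 at the lowest, 10.52 at the median and 11.60 at the highest in MPK6ox, against 6.33, 7.79 and 10.16 in mpk6. Within each combination of organ and treatment every MPK6ox array was above every mpk6 array. Its difference was 2.51 ± 0.29 (SE), a 5.71-fold difference with a limma adjusted p of 0.000118. Its neighbour AT1G26420 read 8.23, 9.30 and 10.15 in MPK6ox, against 5.10, 6.54 and 8.25 in mpk6. The lowest of these was the array that stood apart. The difference was 2.43 ± 0.31, or 5.39-fold (limma adjusted p = 0.000313). AT1G26390 differed by 2.42 ± 0.38 and AT1G26410 by 1.95 ± 0.29, with limma adjusted p of 0.00199 and 0.00108. These 4 genes lie within 5 consecutive loci on chromosome 1, and cross-hybridisation between these paralogs was not tested. Elsewhere in the family AT1G30700 differed by 1.43 and AT4G20830 by 0.81 (limma adjusted p = 0.00381 and 0.0045). The list of this family was chosen after the data were seen. Of its 27 members 22 were measured and 7 were called, all of them higher, with a median of 0.13 over the 22. The seventh, AT5G44390 at 0.34, was called by limma at an adjusted p of 0.0340. It was not called without MPK6ox root hypoxia replicate 3 (adjusted p = 0.0568), nor with the replicate number as a block (0.0506). That block sets the array aside because no other array has number 3. Of the alternatives for AT5G44390, 12 kept the call and 14 lost it. Among the latter were root and shoot of the same number as a random block (limma adjusted p = 0.0711) and median centring (0.0619).

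An osmotin, a glucanase and 2 chitinases were called as well. OSM34, an osmotin of the thaumatin-like family, read 11.68, 13.57 and 13.77 in MPK6ox, against 9.10, 9.62 and 12.16 in mpk6. The 5 MPK6ox root arrays lay between 13.57 and 13.77, and the mpk6 root arrays read 9.99, 12.02, 11.94 and 12.16, the lowest being the array that stood apart. The lines did not overlap within either organ. The difference was 2.46 ± 0.23, or 5.50-fold (limma adjusted p = 2.47e-05). AT4G16260, a beta-1,3-glucanase, read 9.90, 11.29 and 12.50 in MPK6ox and 7.52, 9.18 and 11.37 in mpk6, a difference of 1.86 ± 0.18 with a limma adjusted p of 2.47e-05. The chitinase CHI read 8.70, 10.56 and 11.32 in MPK6ox and 7.32, 8.03 and 10.09 in mpk6, and differed by 1.51 ± 0.19 (limma adjusted p = 0.000362). Another chitinase, AT2G43590, lies 2 loci away and differed by 1.57 ± 0.25 (limma adjusted p = 0.00207). Chitinases and glucanases break down fungal cell walls. The list of chitinases and glucanases was chosen after the data were seen. Of its 21 genes 13 were measured and 3 were called, all higher, with a median of 0.26 over the 13. The 1 measured gene whose annotation text names a pathogenesis-related protein was at −0.48 and was not called.

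Single genes of other families were higher in MPK6ox too. AT3G16530, a legume-type lectin, read 10.57, 11.75 and 13.03 in MPK6ox and 8.41, 9.84 and 11.56 in mpk6. It was higher in MPK6ox within each organ with no overlap, by 2.07 ± 0.17 or 4.18-fold (limma adjusted p = 5.38e-06). AT5G38900, a DSBA-type thioredoxin-fold protein, read 8.41, 9.28 and 9.78 in MPK6ox, against 6.61, 7.09 and 8.12 in mpk6. Here all 9 arrays of MPK6ox lay above all 8 of mpk6, with a difference of 1.94 ± 0.15, or 3.83-fold (limma adjusted p = 2.19e-06). AT3G08820, which encodes an RNA-binding pentatricopeptide repeat protein, was nearly flat across mpk6 at 5.93, 6.16 and 6.25, and read 6.46, 8.24 and 8.91 in MPK6ox. Its difference was 1.73 ± 0.22 (limma adjusted p = 0.000352). AT2G15220, a plant basic secretory protein, differed by 1.66 ± 0.29 (limma adjusted p = 0.00385).

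Among phenylpropanoid genes 2 were called. CCOAMT, a caffeoyl-CoA methyltransferase of the phenylpropanoid pathway that feeds lignin, read 8.61, 9.63 and 10.41 in MPK6ox, against 5.93, 6.87 and 8.31 in mpk6, with no overlap. The difference was 2.38 ± 0.28, or 5.21-fold (limma adjusted p = 0.00014). ALDH2C4, which oxidizes coniferyl and sinapyl aldehydes to ferulic and sinapic acid, differed by 0.69 ± 0.09 (limma adjusted p = 0.000575). Of 29 listed phenylpropanoid genes 6 were measured and these 2 were called, with a median of 0.32 over the 6 and 3 of them below 0. Of the others, CCR2 read 0.72, HCT −0.09 and DFR −0.29, none past the test. Next to this list, UGT72E2, which glucosylates monolignols, was 2.15-fold higher in MPK6ox (limma adjusted p = 0.00108). FACT, which esterifies fatty alcohols with caffeic acid, differed by 1.25 ± 0.20 (limma adjusted p = 0.00176).

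CYP71B24, a cytochrome P450, read 6.67, 7.01 and 8.70 in MPK6ox and 4.58, 5.62 and 6.45 in mpk6, with no overlap between the lines. It differed by 1.75 ± 0.27, or 3.37-fold (limma adjusted p = 0.00166). The CYP71B, UDP-glycosyltransferase, WRKY and U-box families counted here were chosen after the data were seen. Of the 36 genes of the CYP71B family 19 were measured and 3 were called, all higher, with a median of 0.11 over the 19. The other 2 were CYP71B6 at 1.04 and CYP71B23 at 0.95. Among UDP-glycosyltransferases, which attach sugars to hormones and defence compounds, 47 of 58 were measured and 5 were called, all higher, and the median was 0.05, with 18 of the 47 below 0. Of the 5, UGT73B5 and UGT87A2 were not called with root and shoot of the same number as a random block (limma adjusted p = 0.0687 and 0.0691), nor in 13 and 12 of the 17 fits that left out an array. A few regulators were called. WRKY6, a transcription factor of senescence and defence, differed by 0.86 ± 0.16 (limma adjusted p = 0.00616) and was the only called member of the 6 WRKY factors measured. The U-box ubiquitin ligases PUB23 and PUB24, known as brakes on immune signalling, differed by 0.61 and 0.57 (limma adjusted p = 0.0107 and 0.0267), 2 calls among 9 measured. PUB24 was not called with root and shoot of the same number as a random block (limma adjusted p = 0.0528), nor in 5 of the 17 fits that left out an array. The receptor-like kinase gene AT1G74360 differed by 1.48 ± 0.20 (limma adjusted p = 0.000575).

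**Figure D1:**
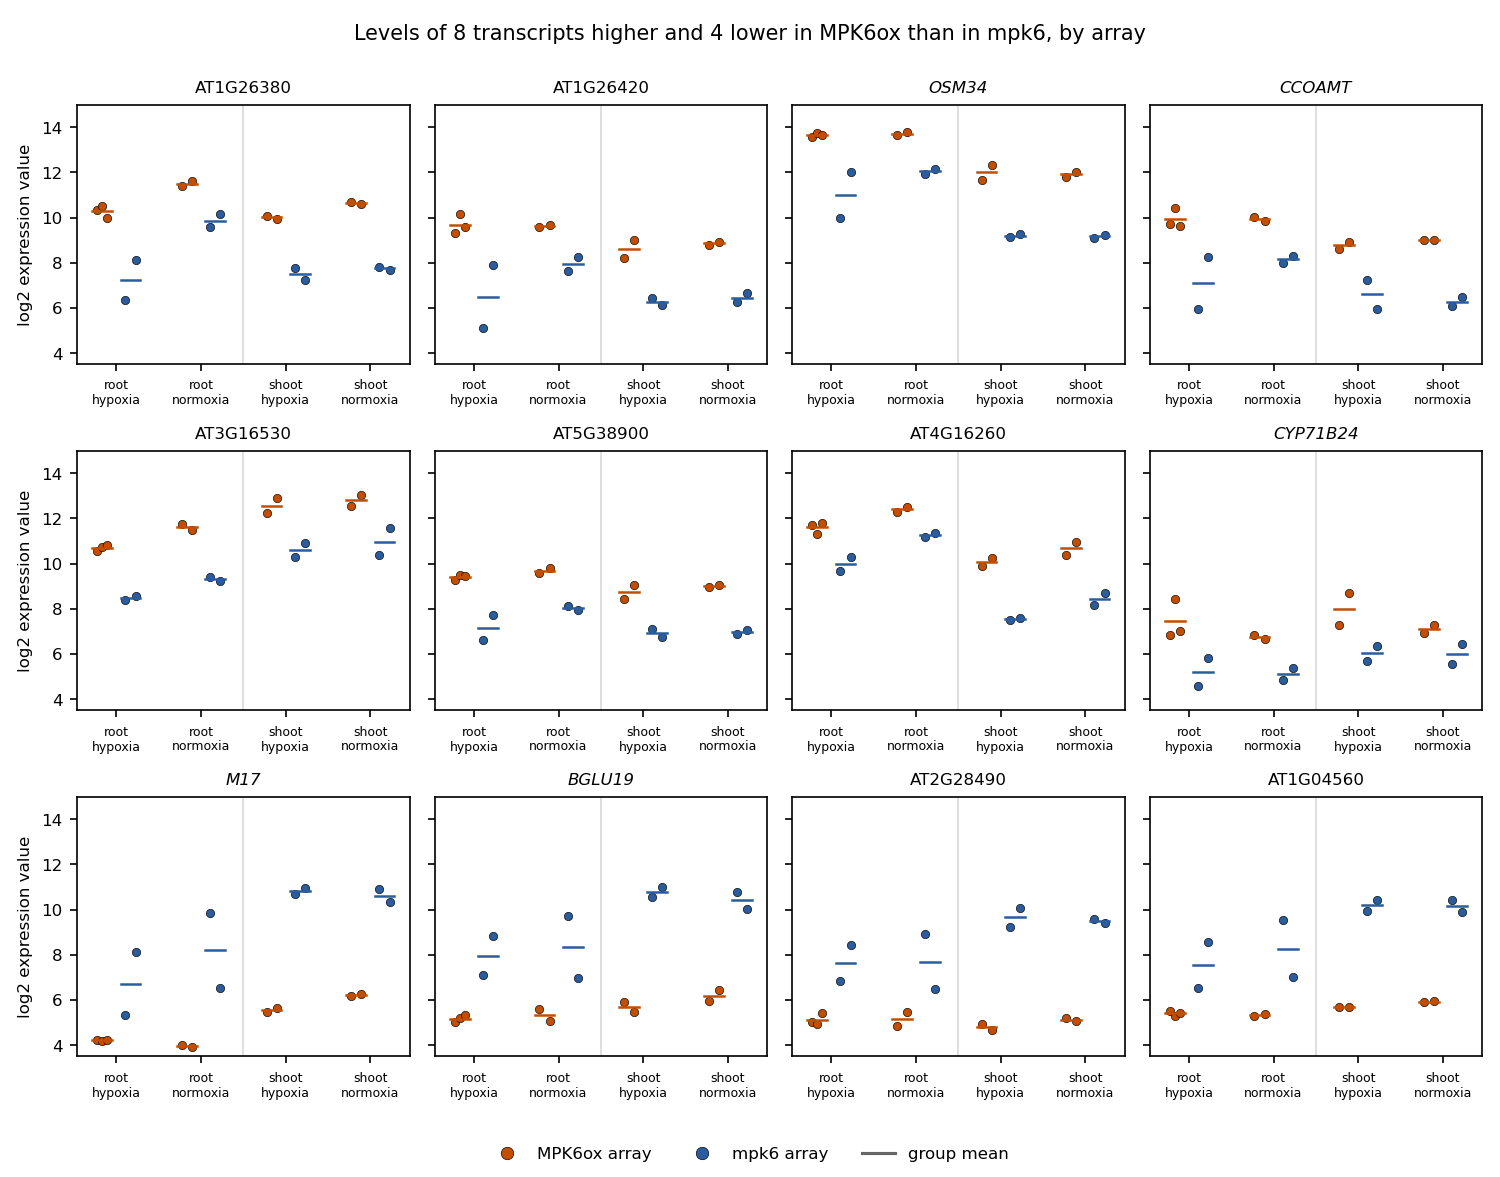
Log2 expression values (vertical axis) of 12 genes in every MPK6ox and mpk6 array, by organ and treatment, with points for arrays and bars for group means. In the 8 upper panels the MPK6ox points lie above the mpk6 points of the same organ and treatment, and in the 4 lower panels they lie below, with mpk6 root arrays spread over several units.

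The other side of the comparison was seed maturation, the programme that loads embryos with reserves and protects them while they dry. M17, a late embryogenesis abundant (LEA) protein gene, read 3.91, 4.25 and 6.27 in MPK6ox, against 5.33, 10.09 and 10.94 in mpk6. The 5 MPK6ox root arrays read 4.25, 4.18, 4.21, 4.01 and 3.91, while the 4 mpk6 root arrays read 5.33, 8.11, 9.85 and 6.54. In shoots MPK6ox read 5.47 to 6.27 and mpk6 10.34 to 10.94. So mpk6 was high in shoots and uneven in roots, with every array above those of MPK6ox in the same organ. The difference was −4.03 ± 0.46, a 16.4-fold lower level in MPK6ox (limma adjusted p = 0.000109). BGLU19, a beta-glucosidase, read 5.02, 5.46 and 6.44 in MPK6ox and 6.99, 9.87 and 10.98 in mpk6, with no overlap. It was lower by 13.3-fold, a difference of −3.73 ± 0.38 (limma adjusted p = 4.76e-05). Genes of a storage protein and a membrane protein followed. AT2G28490, a cupin-type storage protein, read 4.67, 5.02 and 5.49 in MPK6ox and 6.47, 9.09 and 10.06 in mpk6, and AT1G04560, an AWPM-19-like membrane protein, read 5.28, 5.51 and 5.95 in MPK6ox and 6.55, 9.72 and 10.42 in mpk6. The lines did not overlap for either gene, and they were lower in MPK6ox by 11.4-fold and 10.5-fold (limma adjusted p = 8.32e-05 and 9.63e-05).

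Other named genes were lower too. ICL, the isocitrate lyase that turns seed oil into sugar during germination, read 5.19, 5.53 and 5.75 in MPK6ox and 5.56, 7.78 and 9.20 in mpk6. The lines overlapped in roots and not in shoots. It was 4.02-fold lower in MPK6ox, at −2.01 ± 0.37 (limma adjusted p = 0.00601). DELTA-VPE, a vacuolar processing enzyme of the seed coat, read 5.14, 5.49 and 5.85 in MPK6ox and 5.88, 7.60 and 8.98 in mpk6, with no overlap. Its difference was −1.93 ± 0.27 (limma adjusted p = 0.000829). The cysteine protease AT3G54940 was 6.75-fold lower, at −2.75 ± 0.32 (limma adjusted p = 0.000137). Among oleosins, the coat proteins of seed oil bodies, 4 of 8 were measured and 2 were lower: AT2G25890 at −1.53 ± 0.24 and AT3G01570 at −1.05 ± 0.18 (limma adjusted p = 0.00152 and 0.00423). The EIN3-like transcription factor gene AT5G10120 was at −1.82 ± 0.31 (limma adjusted p = 0.00377).

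Of the 46 listed seed maturation genes 20 were measured and 15 were called, all lower in MPK6ox, with a median of −0.99 and all 20 differences below 0. The members of this list were chosen with earlier results of these data known, so the count is a description and not independent support. Without mpk6 root hypoxia replicate 1 the count was also 15, and it was 13 to 15 when any other array was left out. The mean over the 20 genes ran from 5.51 to 5.64 in MPK6ox shoots, against 7.16 to 7.64 in mpk6 shoots and 7.60 to 8.23 in WT shoots. In roots it ran from 5.25 to 5.43 in MPK6ox, 5.69 to 6.63 in mpk6 and 6.77 to 7.76 in WT.

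Not every lower transcript was of the seed. AT3G02530, a subunit of the TCP-1 chaperonin that folds tubulin and actin, was chosen after its values were seen, because the spread within each line was small. It read 9.49, 9.83 and 10.60 in MPK6ox, against 10.73, 11.06 and 11.29 in mpk6, so that no array overlapped. The difference was −1.17 ± 0.10, or 2.25-fold lower (limma adjusted p = 1e-05). GSTU26, a tau-class glutathione transferase, was called at −0.62 (limma adjusted p = 0.0320). It was not called without MPK6ox root hypoxia replicate 3 (0.0617) or with the block that sets that array aside (0.0555). Nor was it called with the 8 group means (0.0615) or with root and shoot of the same number as a random block (0.0592). GSTU26 kept the call in 12 alternatives and lost it in 15. It was the 1 call among 12 measured transferases of the tau and phi classes.

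**Figure D2:**
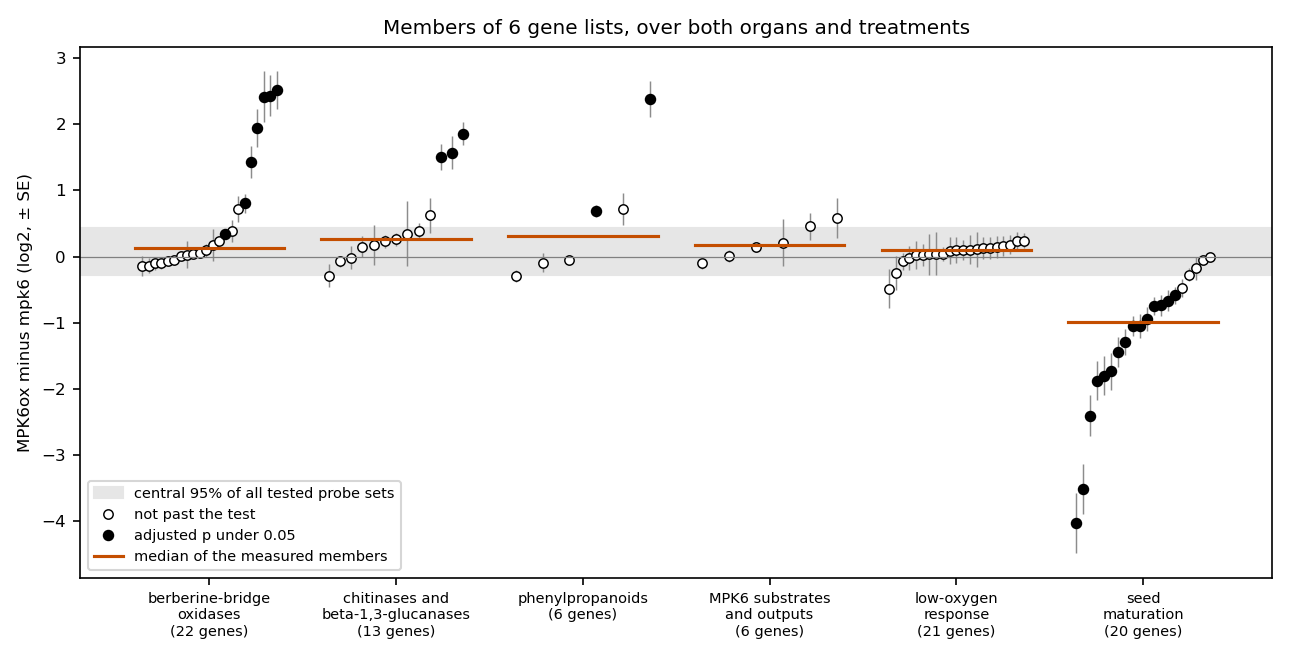
Difference between MPK6ox and mpk6 (vertical axis, log2, ± SE) for each measured member of 6 gene lists, filled where the limma adjusted p was under 0.05, with the list median as a line and the central 95% of all tested probe sets in grey. Of the 20 seed maturation genes 15 lie filled below 0, while the 21 low-oxygen genes and the 6 MPK6 substrates and outputs stay unfilled. Of all tested probe sets 1.92% were called. The berberine-bridge oxidase list and the chitinase and glucanase list were chosen after the data were seen. Members of the other lists were chosen with earlier results of these data known.

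Where WT lay is a description with no test, since no fit compared WT with either line. Of the 316 higher calls, the WT mean was nearer to mpk6 than to MPK6ox in 264 (83.5%), and of the 121 lower calls in 97 (80.2%), against 51.1% of all tested probe sets. For most higher calls, 280 of 316, WT lay between the lines, and for 84 of the 121 lower calls it lay beyond mpk6. Over both organs and treatments M17 averaged 11.94 in WT and BGLU19 10.98, above both lines. CCOAMT averaged 7.38 and AT1G26380 8.36 in WT, nearer to mpk6. AT2G43590 lay at 11.22 in MPK6ox, 9.64 in mpk6 and 11.05 in WT, nearer to MPK6ox.

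The comparison was then read within each organ. In roots limma called 338 probe sets (1.49%), 279 (1.23%) higher and 59 (0.259%) lower in MPK6ox, and in shoots 317 (1.39%), 202 (0.888%) higher and 115 (0.506%) lower. Higher calls had like sizes in roots and shoots, with a median difference of 0.69 in either organ. Choosing calls on the average over both organs favours such likeness. Of the 316 higher calls, limma called 60 in roots and in shoots too. Lower calls were larger in shoots, with a median size of 1.12 there and 0.67 in roots, and 93 of 121 were larger in shoots. Among the 20 seed maturation genes 3 were called lower in roots and 15 in shoots, while the test of the organ difference itself called 1, AT3G01570, with 14 at an unadjusted p under 0.05. The root count was 6 without mpk6 root normoxia replicate 2 and 1 without either MPK6ox root normoxia array. With roots fitted alone limma called 0 of the 20, with 13 at an unadjusted p under 0.05. M17 was at −3.37 in roots and −4.83 in shoots, BGLU19 at −2.91 and −4.65, and ICL at −0.85 and −3.28. The mpk6 shoot arrays of these 3 genes lay closer together than its root arrays. With the replicate number as a block the counts were 583 in roots and 512 in shoots. Root counts were 185 without mpk6 root hypoxia replicate 1, 640 without its replicate 2, 218 without mpk6 root normoxia replicate 2, 210 without MPK6ox root normoxia replicate 2, and 141 with roots fitted alone. Shoot counts were 206 without MPK6ox shoot normoxia replicate 2 and 205 without MPK6ox shoot hypoxia replicate 2.

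**Figure D3:**
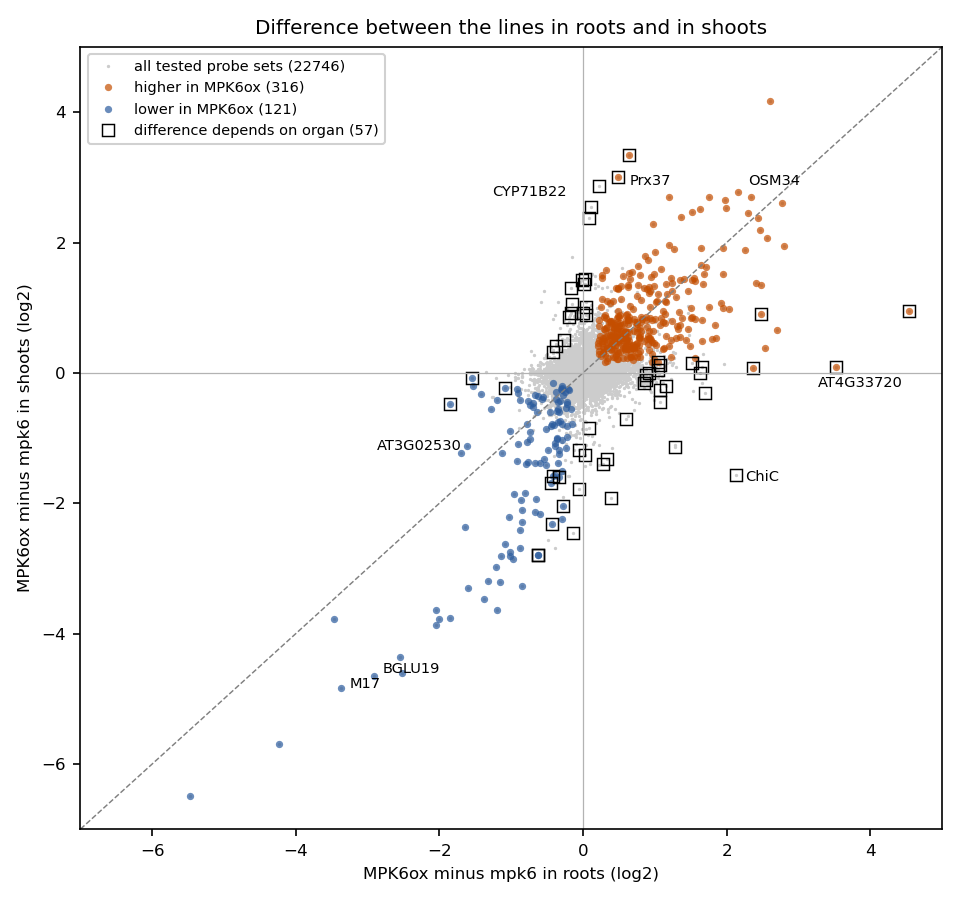
Difference between MPK6ox and mpk6 in shoots (vertical axis, log2) against that in roots (horizontal axis, log2) for all tested probe sets, with the 316 higher and 121 lower calls in colour and squares around the 57 whose difference depends on the organ. Higher calls scatter about the dashed line of equality, and most lower calls lie below it, farther from 0 in shoots.

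A test of the difference itself (root minus shoot) called 57 probe sets (0.251%). ChiC, a class V chitinase, turned direction. It read 9.71, 9.69, 9.96, 10.59 and 11.06 in MPK6ox roots, against 7.34, 8.41, 8.71 and 8.22 in mpk6 roots. In shoots it read 7.76, 8.25, 7.83 and 8.46 in MPK6ox, against 9.51, 9.93, 9.30 and 9.83 in mpk6. In both organs the lines did not overlap, MPK6ox above mpk6 in roots and below it in shoots. The difference was 2.14 ± 0.23 in roots and −1.56 ± 0.24 in shoots (limma adjusted p = 0.000679 and 0.0046), and the organ difference was 3.70 ± 0.34 (0.000542). Averaged over organs ChiC was at 0.35 and was not called.

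AT4G33720, a PR1-like secreted CAP protein, was called in roots and not in shoots. It read 11.07, 10.41, 11.06, 10.64 and 10.67 in MPK6ox roots and 7.40, 7.28, 6.91 and 7.29 in mpk6 roots. Every shoot array of MPK6ox (5.38 to 5.81) and mpk6 (5.42 to 5.76) lay in the same range. That range is low, a little above the lower quartile of these shoot arrays (5.18 to 5.26), so a difference in shoots could go unseen. The root difference was 3.53 ± 0.14, or 11.5-fold (limma adjusted p = 8.71e-08), and the organ difference was 3.43 ± 0.20 (1.08e-05). Over both organs it was called at 1.90 (adjusted p = 0.0289) but not without any 1 of its 9 root arrays (0.0532 to 0.0805), nor with the replicate number as a block (0.0528), which sets MPK6ox root hypoxia replicate 3 aside (0.0566 without it). AT3G29410, a terpene synthase-type gene, ran the other way in roots. It read 7.17, 7.21, 7.44, 7.67 and 8.14 in MPK6ox roots and 9.21, 8.76, 9.32 and 9.25 in mpk6 roots, with no overlap, and its root difference was −1.54 ± 0.12 (limma adjusted p = 2.69e-05). Its shoot difference was −0.09.

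Other genes differed in shoots. Prx37, a class III peroxidase that acts in the cell wall, read 8.38, 9.06, 9.00 and 9.42 in MPK6ox shoots, against 5.84, 5.70, 6.21 and 6.09 in mpk6 shoots. That is a difference of 3.01 ± 0.27, or 8.03-fold (limma adjusted p = 0.000102), where the root difference was 0.49 and not called. CYP71B22 read 8.79, 9.77, 10.24 and 10.26 in MPK6ox shoots and 6.56, 6.41, 7.46 and 7.15 in mpk6 shoots, a difference of 2.87 ± 0.20 (limma adjusted p = 2.85e-05) against 0.23 in roots. SBT3.3, a subtilase linked to the priming of immunity, read 6.85, 8.51, 7.81 and 8.13 in MPK6ox shoots, whereas the mpk6 shoots lay between 5.15 and 5.36. Its shoot difference was 2.55 ± 0.27 (limma adjusted p = 0.000275) and its root difference 0.11. The root arrays of SBT3.3 lay between 4.79 and 5.41, near the lower quartile of the root arrays (5.17 to 5.37), so a difference in roots could go unseen. For all 3 the shoot arrays of the lines did not overlap.

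BETA-VPE, a vacuolar processing enzyme that matures seed storage proteins, was lower in MPK6ox shoots. It read 6.91, 7.10, 7.01 and 7.21 there and 9.34, 9.93, 9.58 and 9.20 in mpk6 shoots, a difference of −2.46 (limma adjusted p = 6.72e-05), with −0.15 in roots. PDF2.1, a defensin-like gene, read 5.47, 5.86, 5.63 and 5.89 in MPK6ox shoots and 8.01, 8.04, 7.76 and 6.72 in mpk6 shoots, a difference of −1.92 (limma adjusted p = 0.00363). In its roots the lines overlapped. The organ differences of CYP71B22, ChiC, AT4G33720, BETA-VPE and AT3G29410 were called in all 25 alternatives run for them, and those of PDF2.1, SBT3.3 and Prx37 were not.

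The count of 57 was 93 with the replicate number as a block. It was 88 without mpk6 root hypoxia replicate 2, 25 without its replicate 1, 28 without mpk6 root normoxia replicate 2, 31 and 36 without mpk6 shoot normoxia replicates 1 and 2, and 24 without mpk6 shoot hypoxia replicate 2. Leaving out MPK6ox arrays gave 37 and 30 for root normoxia replicates 1 and 2, 21 and 20 for shoot normoxia replicates 1 and 2, 30 and 36 for root hypoxia replicates 1 and 3, and 35 for shoot hypoxia replicate 2.

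**Figure D4:**
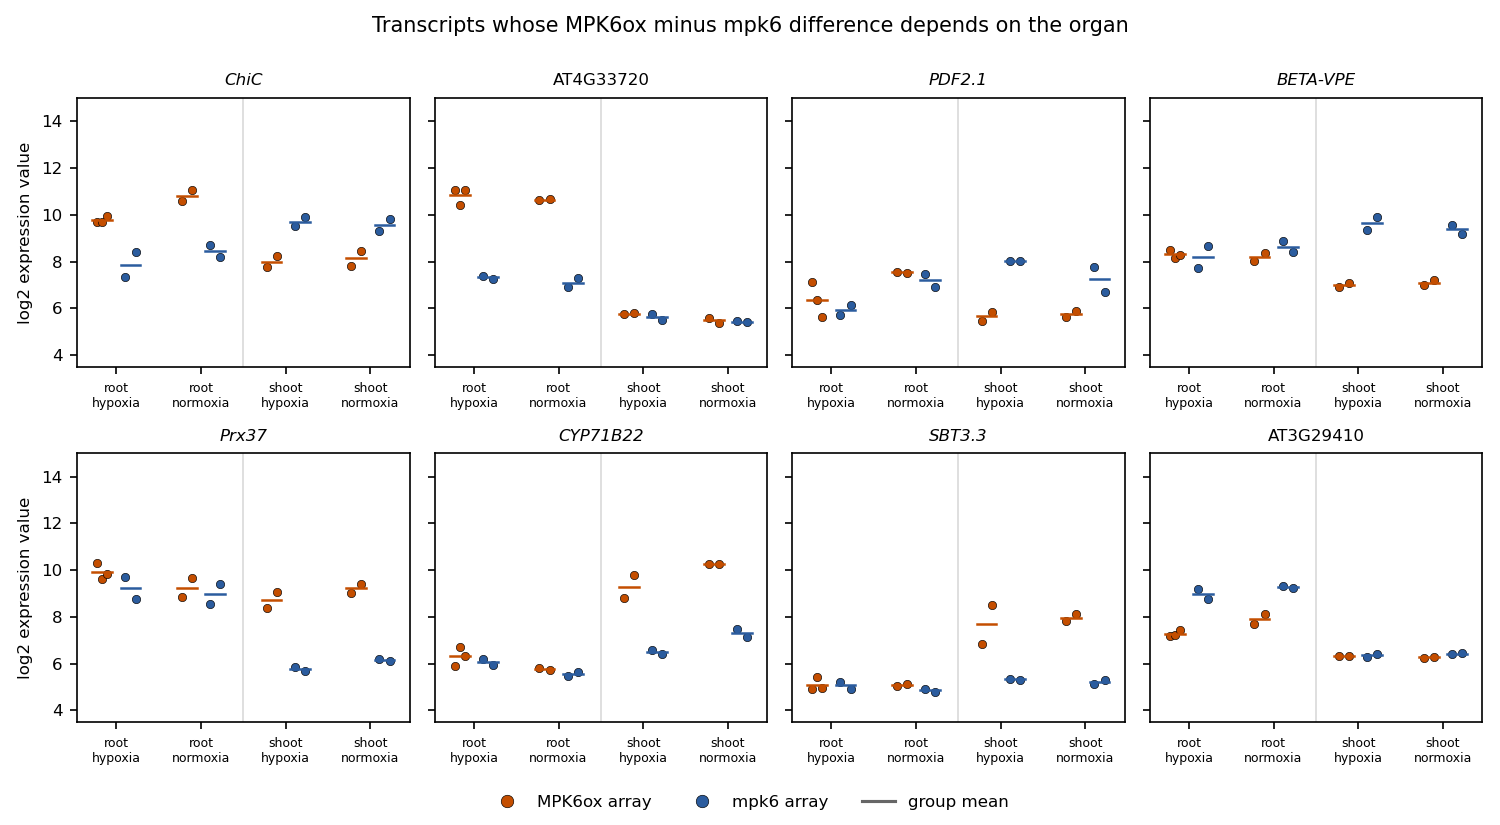
Log2 expression values (vertical axis) of 8 genes whose difference between the lines depends on the organ, in every MPK6ox and mpk6 array of roots and shoots, with points for arrays and bars for group means. ChiC has MPK6ox above mpk6 in roots and below it in shoots, AT4G33720 differs in roots, and Prx37, CYP71B22 and SBT3.3 differ in shoots.

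The last question was whether hypoxia changes the difference between the lines. In hypoxia limma called 280 probe sets (1.23%), 198 (0.87%) higher and 82 (0.361%) lower in MPK6ox, and in normoxia 157 (0.69%), 108 (0.475%) higher and 49 (0.215%) lower. The genes named for the largest differences over both treatments had differences of like size under each. Choosing them on that average favours such likeness, so nothing is read from it. OSM34 was at 2.73 in hypoxia and 2.20 in normoxia, AT5G38900 at 2.03 and 1.84, AT3G16530 at 2.09 and 2.06, M17 at −3.89 and −4.31, and BGLU19 at −3.93 and −3.62. AT1G26420 was at 2.76 in hypoxia (limma adjusted p = 0.00641) and at 2.05 in normoxia, where it was not called (0.0684). The test of the difference, hypoxia minus normoxia, called 0 probe sets by limma, with 621 at an unadjusted p under 0.05. Within roots it called 0 (1212 unadjusted) and within shoots 0 (171 unadjusted). With an array left out it called 1 without mpk6 shoot hypoxia replicate 2, over both organs and in shoots. In roots it called 58 without mpk6 root hypoxia replicate 2, and 1 without MPK6ox root hypoxia replicate 2. A p that misses the threshold does not show that the lines respond alike.

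The counts by treatment moved with single arrays. With the replicate number as a block they were 463 in hypoxia and 299 in normoxia. With root and shoot of the same number as a random block they were 167 and 103. The hypoxia count was 133 without mpk6 root hypoxia replicate 1, 573 without its replicate 2, 171 and 128 without mpk6 shoot hypoxia replicates 1 and 2, and 116 without MPK6ox shoot hypoxia replicate 2. The normoxia count was 102 without mpk6 root normoxia replicate 1, 101 without mpk6 shoot normoxia replicate 1, 103 and 91 without MPK6ox root normoxia replicates 1 and 2, and 89 and 81 without MPK6ox shoot normoxia replicates 1 and 2.

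The low-oxygen response list holds the genes that plants switch on when respiration fails: fermentation enzymes, calcium sensors, and regulators of the response. The mean of its 21 measured genes of 43 ran from 7.53 to 12.47 in MPK6ox roots and from 7.53 to 12.41 in mpk6 roots, so both lines covered the same range. Over both treatments limma called 0 of the 21, with 1 at an unadjusted p under 0.05, a median of 0.10 and a range from −0.49 to 0.24. With any 1 array left out limma also called 0, with 0 to 2 at an unadjusted p under 0.05. The difference of the hypoxia response between the lines was 0.04 for PDC2, a pyruvate decarboxylase of ethanol fermentation, with a 95% interval from −1.37 to 1.44. For CML38, a calmodulin-like protein of stress granules, it was −0.14 (−0.50 to 0.23). The largest differences were AT4G39675 at 0.80 (0.04 to 1.55) and AT3G10040, a trihelix repressor of the low-oxygen response, at −0.56 (−1.10 to −0.01). Their intervals leave out 0 before adjustment, and neither was called. Over both organs and treatments limma called 1.92% of all probe sets, so 0 calls among 21 genes is not read as a result.

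Of 20 listed MPK6 substrates and outputs 6 were measured, and limma called 0, with 1 at an unadjusted p under 0.05. At a share of 1.92% over all probe sets, 0 calls among so few genes is not read as a result. EIN3, the master transcription factor of ethylene signalling, was at 0.01, with a 95% interval from −0.18 to 0.21. The substrate PHOS32 was at −0.10 and SPCH, the regulator that starts the stomatal lineage, at 0.14. WRKY53 was at 0.46 (0.02 to 0.90), STZ, a zinc finger repressor of stress genes, at 0.58 (−0.07 to 1.23), and WRKY22 at 0.21 (−0.54 to 0.96). Of the MAP kinase cascade itself 2 of 40 were measured, and limma called 0, with 0 at an unadjusted p under 0.05: ATMPK8 was at −0.0048 and ATMPK13 at −0.31. MPK6 acts on many of its targets by phosphorylation, which transcript arrays do not measure.

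**Figure D5:**
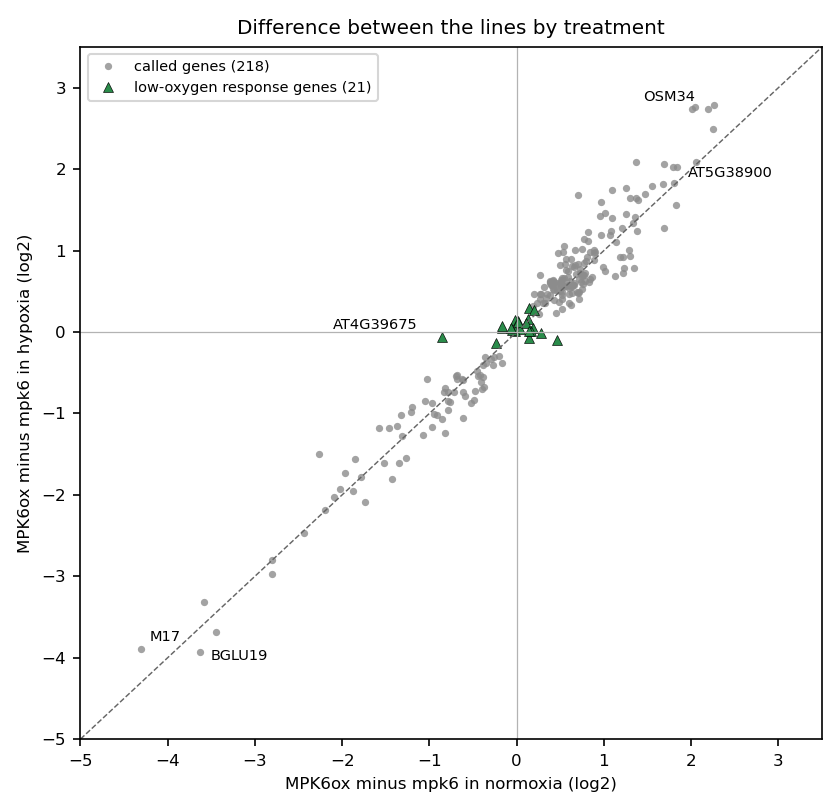
Difference between MPK6ox and mpk6 in hypoxia (vertical axis, log2) against that in normoxia (horizontal axis, log2) for the 218 called genes and the 21 low-oxygen response genes. The called genes lie along the dashed line of equality from M17 and BGLU19 to OSM34, which choosing them on the average over both treatments favours. The low-oxygen genes lie near 0 on both axes, with AT4G39675 the farthest out.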

How the data were processed

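The deposited table holds log2 expression values of 22810 probe sets on 25 arrays. The submitters' processing notes name RMA as the authors' method, with its version and the set of arrays normalized jointly not given in the sources used here. Biotin labelling took 2 cycles, per the labels' protocols. Values ran from 3.60 to 15.1 over the 17 arrays used and were taken as deposited, with no filter. Arrays have no read depth, and their number per group limits the precision.

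After 64 control probe sets (AFFX) were left out, 22746 were tested. By the array's annotation of probes, 13513 carried 1 gene, 503 several, and the genes of 8730 were not used here. Of the 13513, 13436 matched RefSeq's TAIR10.1 annotation and 77 kept their symbol, 13350 different genes in all.

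Models were fitted with limma 3.58.1 under R 4.3.3, and p-values were adjusted by Benjamini-Hochberg over all 22746 probe sets of a comparison. The comparison over both organs had line, organ and treatment as terms (13 residual degrees of freedom), and the comparisons within organs or treatments were contrasts of 8 group means (9). Summaries and plots used Python 3.11.15, pandas 2.3.3 and matplotlib 3.10.9. Simulated data with known changes were used to test the fits.

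The rule named the 15 largest higher and 15 largest lower genes of the comparison over both organs, with the same sign in all 4 combinations, up to 5 each way in the other comparisons, and members of 19 lists (462 genes). Another 5 lists and the families sorted by symbol were added after the data were seen. Among them were the berberine-bridge oxidases, the chitinases and glucanases, and the CYP71B, UDP-glycosyltransferase, WRKY and U-box families. The members and lists were chosen with earlier results of these data known. A listed gene was read from its probe set with the highest mean.

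Alternatives were other covariates, the replicate block, root and shoot of the same number as a random block, quantile normalization, median centring, the 5687 dimmest probe sets left out, trend and robust settings, array weights, all 25 arrays, an organ alone, and the omission of each array. Biological replicate numbers come from the titles. Deviations of same-numbered arrays correlated at 0.107 to 0.674 (median 0.328) in all 28 pairs of groups, so the numbers were taken to pair the samples. The block sets aside MPK6ox root hypoxia replicate 3, since no other array has number 3.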

Additional observations from a re-analysis of the deposited data

Results flagged for a closer look

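The difference between MPK6ox and mpk6 depended on the organ for 13 named genes, by limma's test of the difference itself. The values below are the MPK6ox-minus-mpk6 difference in roots minus that in shoots, on the log2 scale. Positive values belonged to ChiC at 3.70 (limma adjusted p = 0.000542), AT4G33720 at 3.43 (1.08e-05), ARPN at 2.41 (0.0321), PDF2.1 at 2.31 (0.0416), BETA-VPE at 2.31 (0.00568), AT3G08820 at 1.57 (0.0158), LTI30 at 1.29 (0.0371) and AT3G01570 at 1.25 (0.0471). Negative values belonged to CYP71B22 at −2.64 (limma adjusted p = 0.00174), Prx37 at −2.51 (0.0171), SBT3.3 at −2.44 (0.0198), AT3G29410 at −1.46 (0.00298) and AT3G23550 at −1.43 (0.0266).

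ARPN, a plantacyanin, had differences of opposite sign in roots and shoots as ChiC did, but only the root difference was called. It read 8.95, 8.75, 9.41, 8.93 and 9.69 in MPK6ox roots, against 6.56, 7.81, 8.47 and 8.74 in mpk6 roots. In shoots ARPN read 6.86, 6.69, 6.50 and 7.01 in MPK6ox, against 7.67, 8.34, 7.45 and 8.14 in mpk6. The lines did not overlap in either organ. The root difference was 1.28 (limma adjusted p = 0.0379) and the shoot difference was −1.13, which was not called (0.097). LTI30, a dehydrin, was at 0.02 in roots and −1.26 in shoots. AT3G23550, a MATE-type transporter gene, was at −0.01 in roots and 1.43 in shoots. AT3G08820 was at 2.48 in roots and 0.91 in shoots, positive in both. The oleosin AT3G01570 was at −0.44 in roots and −1.69 in shoots. Of 25 alternatives the organ difference of AT3G23550 was called in 13, ARPN in 13, PDF2.1 in 12, SBT3.3 in 17 and Prx37 in 23. The organ differences of AT3G08820, LTI30 and AT3G01570 were not followed through the alternatives.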

How the results depend on the processing

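Counts of called probe sets moved with the processing. With the replicate block, whose numbers pair the samples, limma called 570 over both organs and treatments (437 without), 583 in roots (338), 512 in shoots (317), 463 in hypoxia (280), 299 in normoxia (157) and 93 for the organ difference (57). The block also sets aside MPK6ox root hypoxia replicate 3, the 1 array with that number. AT4G33720, AT5G44390 and GSTU26 lost the call both with the block and without that array alone, and no other named gene lost it with the block. With root and shoot of the same number as a random block the count over both organs and treatments fell to 350. The same block gave 167 in hypoxia, 103 in normoxia and 134 for the organ difference. Group means over all 25 arrays gave 684 over both organs and treatments, where group means over the 17 gave 588 and the additive model 437. Roots fitted alone gave 141. With each array left out the counts ran from 364 to 431 over both organs and treatments, 185 to 640 in roots, 205 to 329 in shoots, 116 to 573 in hypoxia, 81 to 172 in normoxia and 20 to 88 for the organ difference. The treatment difference ran from 0 to 1, from 0 to 58 in roots and from 0 to 1 in shoots, and limma called 0 under the other alternatives, with 284 to 1194 at an unadjusted p under 0.05 over both organs, 728 to 2217 in roots and 77 to 319 in shoots. The cause of these shifts was not tested.

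For the 30 genes named from the comparison over both organs, 797 of 808 alternative values kept the direction and the call. The other 11 were of AT4G33720, and 0 turned direction. Among 29 further called members of the lists and families, 95 of 781 values lost the call and 0 turned direction. They belonged to AT2G42560, AT5G44390, CYP71B23, GSTU26, PAP85, PUB24, UGT73B5 and UGT87A2. Of 1270 values of genes named in the other comparisons, 78 lost the call and 0 turned direction. Direction was followed only for genes already called, which favours a kept sign, so nothing is read from it. The limits are 2 or 3 arrays in each group, a hypoxia length given in 2 ways, 1 array whose control transcripts stood apart, and genotype labels that were not checked against the MPK6 transcript.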

Other observations

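The remaining lists held few measured genes and no call over both organs. These were photosynthesis (7 measured), auxin response (7), mitochondrial dysfunction (5), abscisic acid and dehydration (4), heat shock (4), stomatal lineage (4), jasmonate (3), root tissue (3), and 1 each for ethylene, salicylic acid and pathogen defence, cell division, the circadian clock and nutrient starvation. Limma called 0 of these 42 genes, and 5 had an unadjusted p under 0.05. Over all probe sets 1.92% were called, so 0 of 42 is near that share. No gene of the camalexin and indole glucosinolate list is analysed here. Single members were called in 1 organ. PDF1.2b, a jasmonate-induced defensin, was at 1.51 in shoots (limma adjusted p = 0.0068) and 0.11 in roots, and LBD29, a lateral root regulator, was at −1.05 in roots (limma adjusted p = 0.0111) and −0.03 in shoots. For neither gene did the difference between organs pass limma's test (adjusted p = 0.215 and 0.233).

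Other families sorted by symbol held few calls. Of 40 AGAMOUS-like MADS-box factors, 14 expansins and 9 xyloglucan endotransglucosylases limma called 0, with 1, 0 and 2 at an unadjusted p under 0.05. These counts of 0 are near the share of 1.92% over all probe sets. Among subtilases 1 of 7 was called, SBT3.5 at 0.58 (limma adjusted p = 0.0146). Another 2 genes were chosen after their values were seen. RALFL18, a peptide hormone of the RALF family, was at 0.83 (limma adjusted p = 0.000457), and LHCB4.3, a light-harvesting protein, at 0.60 (0.000724).

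Calls were spread over the genome. Between 1.47% and 2.04% of the measured genes were called on each of chromosomes 1 to 5. Among the 100 loci nearest to MPK6, 50 on either side, 51 were measured, 2 were called higher (CHI and AT2G43590) and the median difference was −0.0027.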
